A study of Mus musculus with 12 samples.

Results

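The genes described here are 42 interferon response and antigen presentation genes, taken from a list of names with earlier results of these data known, out of 25750 mouse genes with at least 1 matched transcript. All 42 were found, and 31 of them reached the level required for testing, 1 TPM (transcripts per 1000000) in at least 3 libraries, which 13079 genes passed. By role they were 3 sensors of double-stranded RNA, 4 transcription factors of the response, 24 type I targets (effectors and feedback regulators), 5 guanylate-binding and immunity-related GTPases (the GBP and IRG families) and 6 genes of MHC class I presentation. They were measured by poly(A) RNA sequencing of C2C12, a mouse myoblast line that forms multinucleated muscle fibres when serum is lowered, in 12 libraries, 3 in each of 4 groups. D2 siKctd10 and D2 siControl cells were differentiating, after a change to medium with 2% horse serum 24 h after transfection, and D0 siKctd10 and D0 siControl cells were undifferentiated, below confluence in 10% serum. All 4 groups had received an siRNA, either 1 duplex against Kctd10, which encodes an adaptor that brings substrates to CUL3 ubiquitin ligases, or 1 non-targeting duplex, so that no untransfected cells and no second Kctd10 duplex stand in the comparison. The protocols give 48 h of siRNA for every sample, which leaves the time from transfection to harvest at D2 unsettled, and nothing in the labels says that replicates were separate cultures, so p-values speak only of the spread between these 12 libraries, part or all of which may be technical.

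Interferons are cytokines that signal through paired receptors, JAK kinases and STAT factors. Type I interferons activate a complex with STAT2 and IRF9 that binds the interferon-stimulated response element (ISRE), and interferon gamma acts through the gamma-activated site (GAS). Double-stranded RNA in the cytosol can be sensed by RIG-I and MDA5, which leads to transcription of interferon genes. MHC class I molecules, a heavy chain paired with beta-2-microglobulin, show peptides on the cell surface, and muscle fibres are known for low class I levels in healthy tissue.

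Promoter windows are shown for 5 of the 6 genes whose RNA differed between the siRNAs, since these genes moved in both directions. Each window runs from 250 bases before to 50 bases after the RefSeq transcription start (GRCm38.p6, the build named mm10), 5′ to 3′ on the gene's strand, in lower case with ISRE cores (GAAANNGAAA on either strand) in capitals.
Gbp2 (chr3:142620413-142620712, plus strand): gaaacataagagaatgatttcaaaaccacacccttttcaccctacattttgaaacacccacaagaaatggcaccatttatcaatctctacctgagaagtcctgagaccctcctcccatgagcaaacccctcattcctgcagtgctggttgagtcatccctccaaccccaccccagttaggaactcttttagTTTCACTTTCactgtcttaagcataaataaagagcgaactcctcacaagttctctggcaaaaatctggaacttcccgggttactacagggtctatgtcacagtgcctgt
Irgm1 (chr11:48871371-48871670, minus strand): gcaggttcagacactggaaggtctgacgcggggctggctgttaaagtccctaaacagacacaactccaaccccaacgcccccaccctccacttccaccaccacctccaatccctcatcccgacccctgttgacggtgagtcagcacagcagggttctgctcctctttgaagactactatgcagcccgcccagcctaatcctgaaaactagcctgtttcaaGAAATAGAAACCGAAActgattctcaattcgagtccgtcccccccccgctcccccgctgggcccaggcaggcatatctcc
Ifit1 (chr19:34640639-34640938, plus strand): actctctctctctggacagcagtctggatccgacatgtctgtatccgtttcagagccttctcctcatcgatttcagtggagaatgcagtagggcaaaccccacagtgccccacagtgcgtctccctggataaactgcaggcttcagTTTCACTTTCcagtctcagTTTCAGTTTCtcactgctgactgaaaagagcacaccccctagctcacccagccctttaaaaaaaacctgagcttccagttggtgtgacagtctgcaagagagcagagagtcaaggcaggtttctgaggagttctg
B2m (chr2:122147437-122147736, plus strand): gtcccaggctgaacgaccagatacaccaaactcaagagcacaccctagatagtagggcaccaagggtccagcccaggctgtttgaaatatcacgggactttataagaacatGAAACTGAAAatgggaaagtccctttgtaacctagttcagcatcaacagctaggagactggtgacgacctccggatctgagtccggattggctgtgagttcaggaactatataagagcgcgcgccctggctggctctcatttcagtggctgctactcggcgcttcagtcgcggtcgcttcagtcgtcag
H2-D1 (chr17:35262844-35263143, plus strand): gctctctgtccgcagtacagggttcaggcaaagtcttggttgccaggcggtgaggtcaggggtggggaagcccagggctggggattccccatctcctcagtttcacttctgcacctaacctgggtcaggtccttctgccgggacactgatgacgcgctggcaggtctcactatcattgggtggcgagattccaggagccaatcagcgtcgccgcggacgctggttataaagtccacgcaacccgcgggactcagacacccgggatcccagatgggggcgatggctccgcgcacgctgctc
The core was found once for Gbp2, from position -59 to -50 relative to the start, and for B2m from -139 to -130. Irgm1 had 2 overlapping copies from -30 to -15, Ifit1 had 2 separate copies, from -104 to -95 and from -85 to -76, and the H2-D1 window held none. RefSeq windows were matched for 32 of the 42 genes, 37 windows in all, and 18 of these (48.6%) held an ISRE core, against 3.44% of all 32851 mouse windows. By role, 5 of 6 windows of the GTPase genes and 9 of 17 windows of the type I targets held it, against 1 of 6 windows of class I genes. The GAS core (TTCNNNGAA, which reads the same on both strands) was in 8 of the 37 windows (21.6%) and in 8.3% of all windows, and 2 of its matches in these genes overlapped an ISRE core. A match is a description of these letters and says nothing of binding in C2C12 cells. Looser forms of the element were not searched for, so a window without the core may still hold one. The H2-D1 window holds tttcacttct, which departs from the core only in its last letters.

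Kctd10, the targeted gene, was lower in every siKctd10 library. It stood at 32.0 ± 4.58 TPM in D2 siKctd10 cells against 283 ± 6.77 TPM in D2 siControl cells, and at 23.1 ± 2.69 TPM in D0 siKctd10 cells against 266 ± 7.32 TPM in D0 siControl cells (SD, n = 3 each). Depth, estimated from coverage, was 12.51 to 18.08 read pairs per library in units of 1000000, and the 12 replicate pairs correlated at 0.937 to 0.952 across genes on the log2(TPM + 1) scale. The root mean square distance of a library from its group mean was 0.405 to 0.459 on that scale, highest in D0 siKctd10 library 3. Myogenic markers (Myod1, Myf5, Myog, Des and Pax7) summed to 424.5 TPM or more in every library, whereas Ptprc, Adgre1, Tyrobp and Cd3e were at 0 in all 12 and the leukocyte and macrophage markers looked for summed to 0.872 to 2.90 TPM. The myogenic sum was lower in D2 siKctd10 libraries (1084 to 1389 TPM) than in D2 siControl libraries (1585 to 1640 TPM), and Myog, a regulator of myoblast differentiation, fell (log2 fold change -0.75, SE 0.14, limma adjusted p = 0.016). Myod1 and Myf5 were also lower without overlap. Des (574.1 to 838.4 against 837.7 to 887.9 TPM) and Pax7 (14.9 to 22.2 against 17.6 to 21.1 TPM) overlapped between the siRNAs at D2. At D0 the sums overlapped, from 424.5 to 543 TPM in siKctd10 libraries and from 453 to 462.5 TPM in siControl libraries. These are bulk samples, in which fewer cells of a kind and less RNA per cell cannot be told apart.

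The levels of these RNAs covered a wide range. Averaged over the 12 libraries, 29 of the 42 genes reached 1 TPM, 16 reached 10 TPM and 5 reached 100 TPM. Those 5 were B2m, which encodes beta-2-microglobulin (1053 TPM), Ifitm3, which restricts virus entry (420 TPM), the class I heavy chain genes H2-D1 (214 TPM) and H2-K1 (154 TPM), and Tapbp, the tapasin gene of the peptide-loading complex (122 TPM). TPM is scaled by transcript length, but gene values rested on part of their exons, as shown further on, so these levels can be set against each other only roughly. Between 10 and 100 TPM were, among others, Irgm1 (69.8 TPM), Irf1 (47.0 TPM), Ifi27 (37.3 TPM) and Ifit2, a relative of Ifit1 (21.7 TPM, 18.2 to 26.4 TPM across the libraries). Other type I targets lay near the floor. Oas1a was listed at 0 in all 12 libraries, and Oas2, Usp18, Mx2, Ifi44, Cxcl10 and Rsad2 averaged 0.0190, 0.0800, 0.0353, 0.121, 0.225 and 0.310 TPM. The 11 genes that did not pass the minimum were these 7 together with Dhx58, Ifi35, Mx1 and Tap1. Isg15, a ubiquitin-like modifier, averaged 2.71 TPM, and Ifit1, a sensor of foreign RNA caps, 3.31 TPM. The interferon genes looked for, Ifnb1, Ifna2, Ifna4, Ifna5, Ifnk, Ifng, Ifnl2 and Ifnl3, were at 0 in every library.

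**Figure D1:**
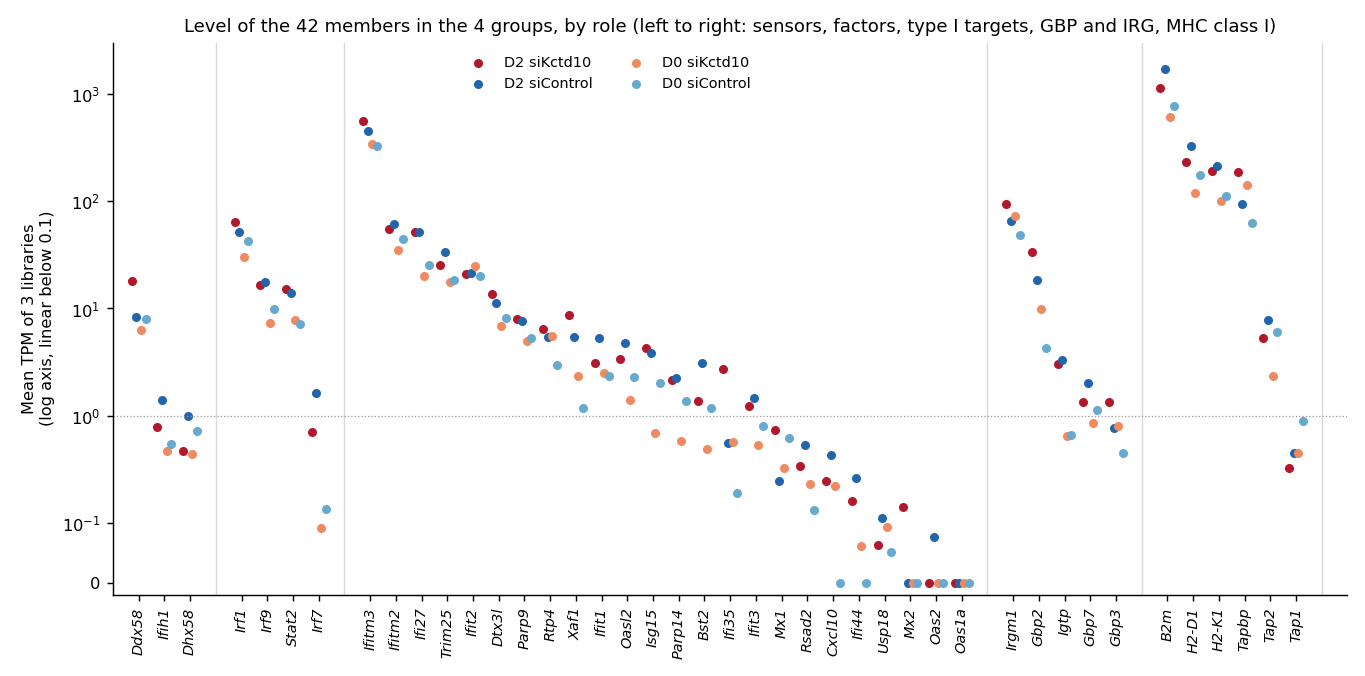
Mean TPM of 3 libraries (log axis, linear below 0.1) for each of the 42 genes, in D2 siKctd10, D2 siControl, D0 siKctd10 and D0 siControl cells, with the filter level of 1 TPM dotted. Within each role genes run from the highest to the lowest mean, and B2m, Ifitm3, H2-D1, H2-K1 and Tapbp stand highest.

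A few of these genes differed between the siRNAs, in both directions. Gbp2 and Irgm1 rose on both days, and H2-D1 fell on both. At D2 the genes past an adjusted p of 0.05 (limma on log2(TPM + 1), two-sided, Benjamini-Hochberg over all genes tested) were 5 of 31, with Gbp2 and Irgm1 higher and B2m, H2-D1 and Ifit1 lower. Across all genes at D2, 2.83% were called higher and 1.92% lower. At D0 they were 4 of 31, with Gbp2 and Irgm1 higher and H2-D1 and Tap2 lower, where 1.48% of all genes were called higher and 0.963% lower. Calls on both days in the same direction were 2 higher and 1 lower among these genes, against 0.596% and 0.321% of all genes. The 3 siKctd10 libraries did not overlap the 3 siControl libraries for 6 genes that were higher and 7 that were lower at D2, against 18.5% and 9.92% of all genes, and for 5 and 5 at D0, against 14.4% and 8.77%. Gbp3, among the higher at D2, reached 1 TPM only in siKctd10 libraries, and Ifih1, among the lower, only in D2 siControl libraries. The filter thus favoured these directions, so the counts at D2 are not independent of it. The median log2 fold change of the 31 was -0.04 at D2 and -0.16 at D0, against 0.08 and 0.05 for all genes.

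Gbp2, an interferon-inducible GTPase that acts on the vacuoles of intracellular parasites, was the member with the largest called rise. It stood at 40.5, 31.3 and 30.0 TPM in D2 siKctd10 libraries and at 18.5, 19.7 and 17.4 TPM in D2 siControl libraries. At D0 it stood at 10.4, 9.86 and 9.61 TPM in siKctd10 libraries and at 4.40, 3.70 and 4.73 TPM in siControl libraries. On both days every siKctd10 library lay above every siControl library of its day. The ratio of means was 1.83 at D2 (log2 fold change 0.83, SE 0.14, limma adjusted p = 0.009) and 2.33 at D0 (1.06, SE 0.14, adjusted p = 0.0042). The call held on both days with any 1 library left out. It ended at D2 when only the 2 groups compared entered the model (adjusted p = 0.061).

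Irgm1 encodes an immunity-related GTPase that regulates other GTPases of its family and autophagy. Its TPM was 92.5, 94.5 and 92.7 in D2 siKctd10 libraries, against 65.9, 68.1 and 61.6 in D2 siControl libraries. At D0 it was 71.3, 74.6 and 71.7 in siKctd10 libraries, against 44.1, 49.95 and 50.9 in siControl libraries. The groups were narrow and did not overlap on either day, and the D0 siKctd10 libraries also lay above all 3 D2 siControl libraries. The ratio of means was 1.43 at D2 (log2 fold change 0.51, SE 0.08, limma adjusted p = 0.006) and 1.501 at D0 (0.58, SE 0.08, adjusted p = 0.0049). The call held with any 1 library left out, and ended at D0 when only the 2 groups compared entered the model (adjusted p = 0.084).

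The other 3 GTPase genes, all below 4 TPM in every library, were not called on either day. Igtp, an IRG effector GTPase, averaged 3.03 ± 0.425 TPM in D2 siKctd10 and 3.34 ± 0.262 TPM in D2 siControl cells, with a log2 difference of -0.11 (95% interval -0.40 to 0.17). Gbp7 had log2 fold changes of -0.36 at D2, where its groups did not overlap, and -0.18 at D0, and Gbp3 of 0.38 and 0.30. Gbp3 passed the filter only through siKctd10 libraries, which favoured its higher siKctd10 values. Summed, the 5 GTPase genes held 133 ± 4.57 TPM in D2 siKctd10 and 89.9 ± 4.81 TPM in D2 siControl cells, and 84.8 ± 1.67 TPM in D0 siKctd10 and 54.8 ± 3.90 TPM in D0 siControl cells. Irgm1 and Gbp2 made up nearly all of these sums.

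Of the 5 class I genes tested, 2 were called lower and 0 higher on each day, B2m and H2-D1 at D2 and H2-D1 and Tap2 at D0. The means of Tapbp, not called, lay higher in siKctd10 cells on both days. B2m read 1183, 1261 and 951 TPM in D2 siKctd10 libraries, against 1885, 1662 and 1535 TPM in D2 siControl libraries. At D0 it read 675, 648 and 521 TPM in siKctd10 libraries, against 763, 810 and 744 TPM in siControl libraries. The groups did not overlap on either day. Its mean in siKctd10 cells was 66.8% of that in siControl cells at D2 (log2 fold change -0.59, SE 0.13, limma adjusted p = 0.032) and 79.6% at D0, where it was not called (-0.34, SE 0.13, adjusted p = 0.24). The D2 call remained without D2 siControl library 3 or D2 siKctd10 library 2, and ended without each of the other 4 libraries, at adjusted p of 0.07 to 0.12.

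H2-D1, a class I heavy chain gene, was at 234, 224 and 238 TPM in D2 siKctd10 libraries and at 356, 336 and 288 TPM in D2 siControl libraries. At D0 it was at 116, 139 and 104 TPM in siKctd10 libraries and at 160, 187 and 180 TPM in siControl libraries. Again no siKctd10 library reached a siControl library of its day. The mean fell to 71.1% of the siControl mean at D2 (log2 fold change -0.49, SE 0.12, limma adjusted p = 0.046) and to 68.2% at D0 (-0.56, SE 0.12, adjusted p = 0.039). Both calls sit close to the threshold. The D2 call survived only the removal of D2 siControl library 3, with adjusted p of 0.1 to 0.14 without each of the other 5, and the D0 call only that of D0 siKctd10 library 2, with 0.077 to 0.13 otherwise. H2-D1 shares 12.8% of its 50-base transcript stretches with other genes, chiefly H2-Q1 and H2-K1, so its reads could be split among them. For B2m, Irgm1, Tap2, Gbp2 and Ifit1 the shares were 0, 0.31%, 0.655%, 2.03% and 7.13%.

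H2-K1, the other heavy chain gene, did not pass on either day. Its means were 192 ± 19.0 TPM in D2 siKctd10 and 212 ± 48.1 TPM in D2 siControl cells, and 99.5 ± 10.1 TPM in D0 siKctd10 and 112 ± 10.6 TPM in D0 siControl cells. The log2 differences were -0.12 at D2 (95% interval -0.49 to 0.25) and -0.16 at D0 (-0.53 to 0.21), and the H2-D1 values lie at the lower bound of the first interval and just outside the second.

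Tap2 encodes a subunit of the transporter that carries peptides into the endoplasmic reticulum. It read 1.77, 2.76 and 2.48 TPM in D0 siKctd10 libraries and 4.48, 8.35 and 5.15 TPM in D0 siControl libraries, and 6.01, 5.02 and 4.88 TPM in D2 siKctd10 against 7.77, 8.30 and 7.12 TPM in D2 siControl libraries. The groups did not overlap on either day. At D0 the mean was 39.0% of that in siControl cells (log2 fold change -1.04, SE 0.20, limma adjusted p = 0.03), a call that remained only when D0 siControl library 1 was left out and otherwise stood at 0.059 to 0.09. Without D0 siControl library 2, the highest of its group, the log2 fold change was -0.81. At D2 it was -0.47 (SE 0.20, adjusted p = 0.24), which was not called. Tap1, the other subunit, was below 1 TPM in all 12 libraries.

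Summed over the 6 class I genes, TPM was 1749 ± 219 in D2 siKctd10 and 2334 ± 189 in D2 siControl cells, and 979 ± 134 in D0 siKctd10 and 1130 ± 71.1 in D0 siControl cells. The Tapbp part of these sums was unsteady, as its exon values show further on. The lower B2m and H2-D1 at D2 came with the lower myogenic sum and the lower Myog given above, whose part in the result was not tested.

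**Figure D2:**
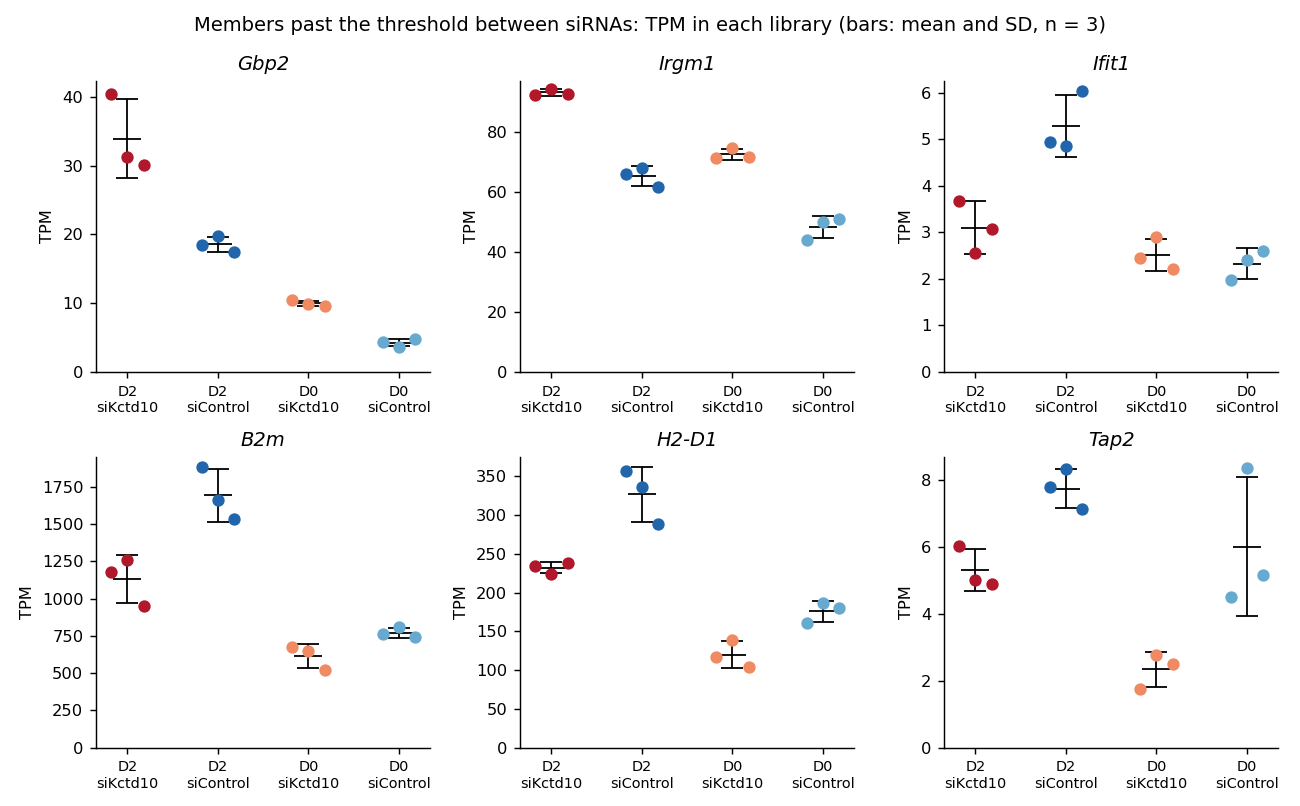
TPM of the 6 genes past the threshold in either siRNA comparison, 1 point per library, with mean and SD (n = 3), in D2 siKctd10, D2 siControl, D0 siKctd10 and D0 siControl cells. Gbp2 and Irgm1 lay above siControl on both days, B2m, H2-D1 and Tap2 lay below it, and Ifit1 lay below it at D2.

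The 15 type I targets tested gave 1 call, and it was a fall. Ifit1 read 3.68, 2.55 and 3.07 TPM in D2 siKctd10 libraries and 4.93, 4.86 and 6.05 TPM in D2 siControl libraries, without overlap. Its D2 mean was 58.7% of that in siControl cells (log2 fold change -0.62, SE 0.15, limma adjusted p = 0.046), and removal of any 1 library ended the call (adjusted p of 0.051 to 0.14). At D0 it read 2.44, 2.90 and 2.22 TPM in siKctd10 libraries and 1.97, 2.41 and 2.61 TPM in siControl libraries, which overlapped (log2 fold change 0.08, adjusted p = 0.85). The medians of the 15 were -0.03 at D2 and -0.20 at D0, and the uncalled log2 fold changes ran from -1.22 (Bst2) to 0.62 (Xaf1) at D2 and from -0.88 (Isg15) to 0.71 (Rtp4) at D0. Bst2, the tetherin gene, was listed at 0 in 5 libraries, which leaves its interval at D2 from -2.79 to 0.35. Ifit3 and Ifitm2 share 51.2% and 48.5% of their transcript stretches with near-copies, so their values are uncertain. Ifitm3 had means of 553 ± 12.7 TPM in D2 siKctd10 and 455 ± 47.6 TPM in D2 siControl cells (0.29, SE 0.11, limma adjusted p = 0.17), and 344 ± 15.8 TPM in D0 siKctd10 and 329 ± 47.5 TPM in D0 siControl cells.

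Several targets came near the threshold. Xaf1, a pro-apoptotic interferon target, was at 9.67, 8.50 and 8.02 TPM in D2 siKctd10 against 4.32, 5.37 and 6.43 TPM in D2 siControl libraries, and at 1.88, 2.73 and 2.44 TPM in D0 siKctd10 against 1.42, 1.19 and 0.974 TPM in D0 siControl libraries. Its groups did not overlap on either day, and its log2 fold changes of 0.62 and 0.61 had limma adjusted p of 0.062 and 0.092. Rtp4, a chaperone of receptors at the cell surface, had a log2 fold change of 0.71 at D0 (adjusted p = 0.066), and Parp14, an ADP-ribosyltransferase, of -0.59 (adjusted p = 0.064). Mx1, an antiviral GTPase that stayed below 1 TPM, read 0.809, 0.623 and 0.793 TPM in D2 siKctd10 against 0.107, 0.502 and 0.132 TPM in D2 siControl libraries, and 0.351, 0.239 and 0.383 TPM in D0 siKctd10 against 0.594, 0.617 and 0.660 TPM in D0 siControl libraries. The siKctd10 libraries thus lay above siControl at D2 and below it at D0, at a level of few reads. Parp14 passed at D0 under 5 alternative settings, a smaller pseudocount, both rescalings, voom and exon-restricted values.

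The sensors and transcription factors were not called on either day. Ddx58, which encodes RIG-I, read 16.3, 17.5 and 20.4 TPM in D2 siKctd10 libraries, against 7.05, 8.98 and 9.12 TPM in D2 siControl libraries. At D0 it read 3.67, 7.998 and 7.42 TPM in siKctd10 libraries, against 10.0, 8.46 and 5.51 TPM in siControl libraries. The groups were apart at D2 and overlapped at D0. The D2 log2 fold change of 1.02 (SE 0.27) had a limma adjusted p of 0.066, and passed when only the 2 groups compared entered the model. This difference lay partly in exons listed at 0 in every D2 siControl library, as given further on. Ifih1, which encodes MDA5, was at 0.793 ± 0.163 TPM in D2 siKctd10 and 1.40 ± 0.396 TPM in D2 siControl cells (log2 fold change -0.41, adjusted p = 0.17). It passed the filter only through its D2 siControl libraries, which favoured a lower siKctd10 value. Irf1, the most abundant factor of the 4, had log2 fold changes of 0.30 at D2 and -0.68 at D0, and Stat2 of 0.10 and 0.11. Irf7, an amplifier of the type I response, averaged 0.711 ± 0.857 TPM in D2 siKctd10 and 1.62 ± 0.123 TPM in D2 siControl cells.

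**Figure D3:**
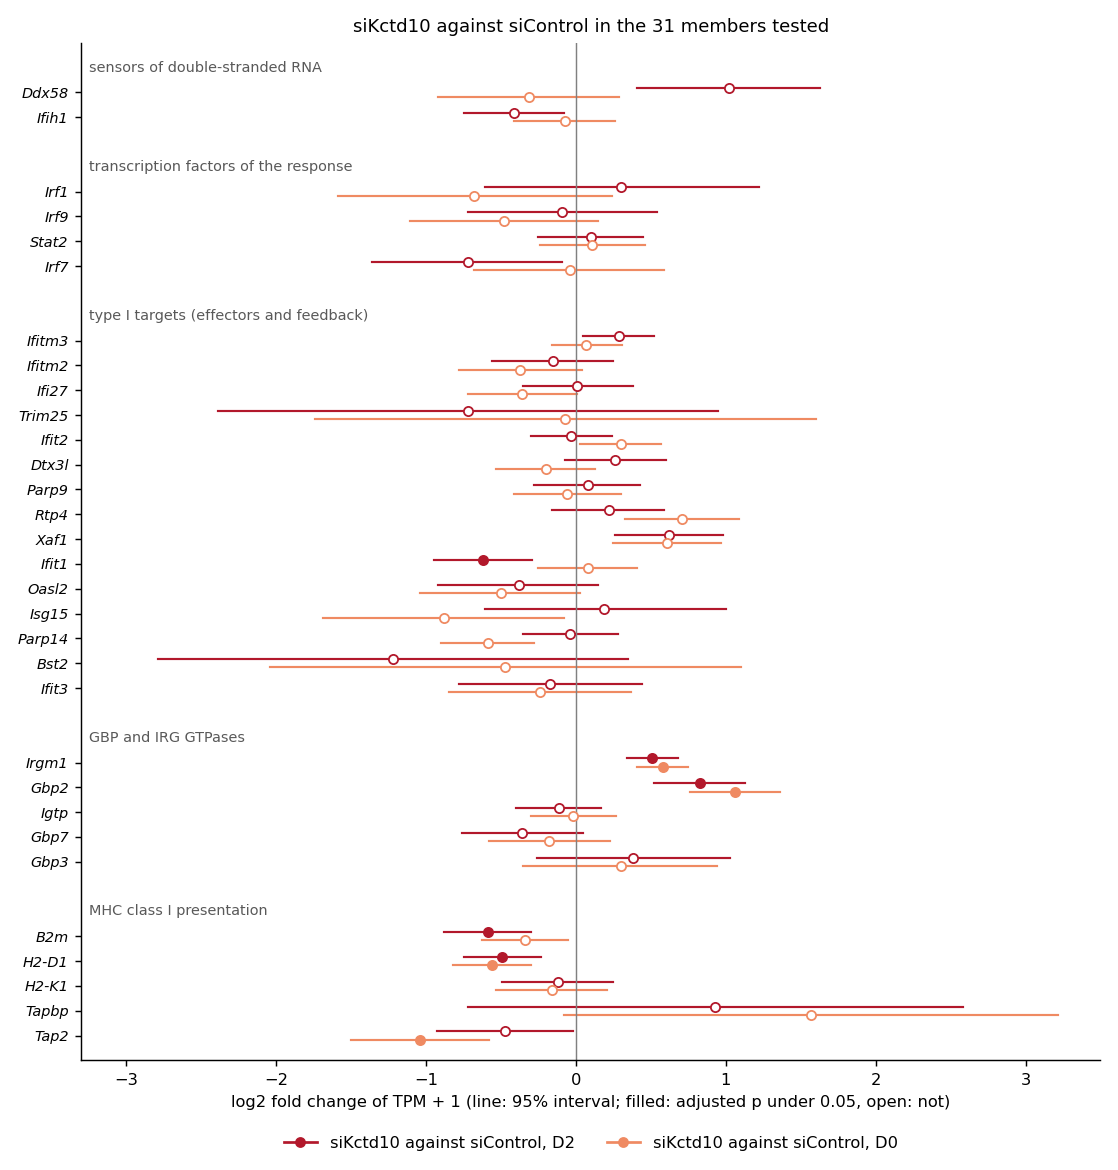
Log2 fold change of TPM + 1 with its 95% interval for siKctd10 against siControl in the 31 genes tested, at D2 and at D0, by role; filled points passed an adjusted p of 0.05. Gbp2 and Irgm1 are filled to the right on both days and H2-D1 to the left on both, with B2m and Ifit1 filled at D2 and Tap2 at D0.

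Other genes of the pathway were looked at in the same fit. At D0 none of the genes tested in any of these lists was called, and at an unadjusted p under 0.05 the counts were 4 of 15 receptors, kinases and their regulators, 3 of 16 induction genes, 3 of 23 other interferon-stimulated genes and 3 of 17 other class I genes, against 15.8% of all genes. At D2, Jak2, a kinase of the interferon gamma receptor, was at 75.3, 79.5 and 70.3 TPM in siKctd10 libraries against 42.9, 47.8 and 48.7 TPM in siControl libraries (log2 fold change 0.68, SE 0.08, limma adjusted p = 0.0026). Socs3, a feedback inhibitor of JAK signalling, rose as well (0.42, SE 0.08, adjusted p = 0.019), and these were the 2 called of 15. Among 23 other interferon-stimulated genes, Ube2l6, the conjugating enzyme for ISG15, was the 1 called and lower, at 71.6, 60.0 and 50.1 TPM in D2 siKctd10 against 131, 103 and 95.2 TPM in D2 siControl libraries (-0.85, SE 0.18, adjusted p = 0.029). Of the 23, 15 had positive and 8 negative log2 fold changes at D2, with a median of 0.18 against 0.08 for all genes. Of 16 induction genes 0 were called at D2. Across all genes at D2, 2.83% were called higher and 1.92% lower.

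The 2 called of 17 other class I genes at D2 were both lower, where 2.83% of all genes were called higher and 1.92% lower. The 17 had 9 positive and 8 negative log2 fold changes, with a median of 0.08, the same as for all genes. H2-Q4, a non-classical heavy chain gene, was at 15.4, 15.7 and 16.6 TPM in D2 siKctd10 libraries and at 32.0, 31.7 and 28.6 TPM in D2 siControl libraries (-0.91, SE 0.20, limma adjusted p = 0.032). Nlrc5, the class I transactivator, was at 1.90, 2.77 and 2.40 TPM in D2 siKctd10 libraries and at 4.25, 4.77 and 4.48 TPM in D2 siControl libraries (-0.72, SE 0.14, adjusted p = 0.018). It lay below the level of 5 TPM set for naming and was singled out after its values were seen. Psmb10, an immunoproteasome subunit gene also singled out after its values were seen, was higher without overlap and not called, at 7.08 ± 1.63 TPM in D2 siKctd10 and 3.45 ± 1.75 TPM in D2 siControl cells (0.92, SE 0.34, adjusted p = 0.18), and at 9.11 ± 2.02 TPM in D0 siKctd10 and 3.40 ± 1.42 TPM in D0 siControl cells (1.24, SE 0.34, adjusted p = 0.1). The receptor genes Ifnar1, Ifnar2, Ifngr1, Ifngr2 and Il10rb, at group means of 19.0 to 91.7 TPM, were not called in either siRNA comparison, and Ifnlr1 stayed below 1 TPM.

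The deposited files also list coverage per exon, which shows where a gene's TPM came from. In 2513 single-transcript genes of at least 5 TPM, 39.3% of 18427 exons were listed at 0 in some libraries and above 0 in others, and 31.3% at 0 in all, so gene values rested on part of their exons. Scaled to TPM units, Irgm1 had coverage in all 12 libraries over each of its 3 exons, and Gbp2 over 4 of 11 exons, and in each of these exons the siKctd10 mean lay above the siControl mean on both days. In B2m, 3 of 4 exons were covered in all libraries and all 3 had lower siKctd10 means on both days. Exon 4 (432 bases) kept the groups apart on both days, and exons 2 and 3 overlapped on both. Exon 3 (29 bases) stood at 14.8, 187 and 36.1 in D0 siControl and at 31.5, 31.9 and 42.4 in D0 siKctd10 libraries. H2-D1 had 7 of 8 exons covered throughout, lower in 7 at D2 and in 5 at D0. H2-K1 had 2 of 8 exons covered throughout, and both had higher siKctd10 means on both days, whereas the whole-gene log2 differences given above were below 0. These are exons of its main transcript. Another H2-K1 transcript, of 2 exons, held 123 TPM in D2 siKctd10 library 3 and 151 TPM in D2 siControl library 2. It held 58.9 and 22.4 TPM in D0 siKctd10 libraries 1 and 2, and 0 elsewhere. The part of this split in the difference was not tested. Tapbp had 4 of 8 exons covered throughout, all with higher siKctd10 means on both days. Tap2 rested on 1 of 12 exons and Ifit1 on 1 of 2. With values restricted to exons covered in all 12 libraries and the whole table refitted, the calls for these 6 genes remained on the same days.

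Other members jumped with a single exon. The last exon of Irf1 stood at 0.006 in D0 siKctd10 library 1 and at 67.9 to 117 in the other 11 libraries, and the gene read 10.8 TPM in that library against 45.1 and 35.5 TPM in the other 2 of its group. The last exon of Tapbp stood at 0.287 in D2 siKctd10 library 3, at 0.188 in D2 siControl library 3 and at 0.063 in D0 siControl library 1, and at 110 to 381 in the other 9. Tapbp itself read 202, 263 and 97.5 TPM in D2 siKctd10 libraries, 112, 107 and 61.1 in D2 siControl, 192, 143 and 90.7 in D0 siKctd10, and 11.04, 95.2 and 83.5 in D0 siControl. Its log2 fold changes of 0.93 at D2 and 1.57 at D0 had an SE of 0.74. Trim25, a ubiquitin ligase of RIG-I signalling, stood at 5.91, 6.22 and 6.82 TPM in 3 libraries of 3 different groups, against 20.5 to 37.4 TPM in the other 9. Neither Tapbp nor Trim25 was called in either siRNA comparison. In Ddx58, exons 3 and 16 of 18 were at 0 in all 3 D2 siControl libraries. In D2 siKctd10 libraries they stood at 62.1 to 69.0 and at 43.2 to 80.8. Its exon 18, of 2330 bases, stood at 16.5 to 22.6 in D2 siKctd10 and at 13.2 to 15.7 in D2 siControl libraries. Of its 3 exons covered in all 12 libraries, 2 had a higher and 1 a lower siKctd10 mean at D2.

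**Figure D4:**
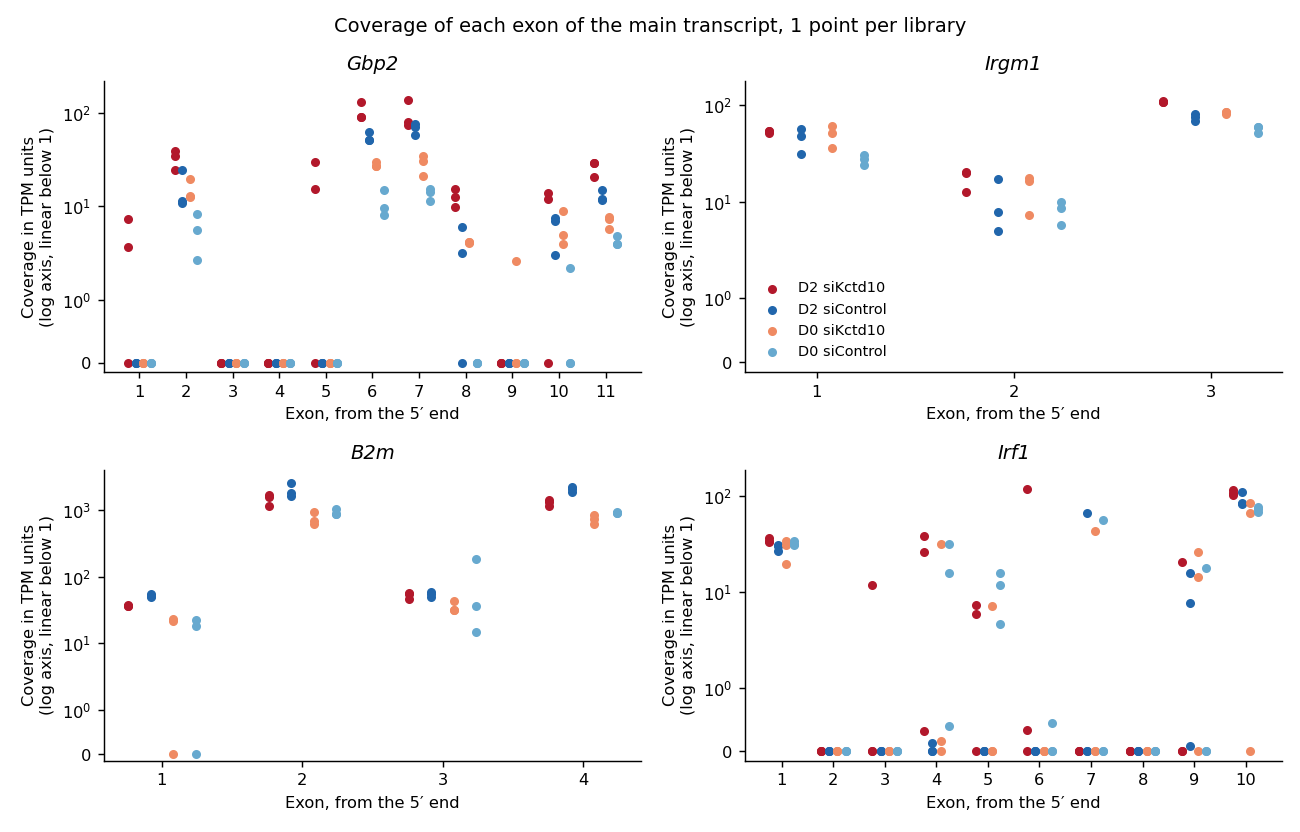
Coverage in TPM units (log axis, linear below 1) of each exon of the main transcript of Gbp2, Irgm1, B2m and Irf1, 1 point per library in the 4 groups. Irgm1 is covered in every exon, Gbp2 has exons at 0 in all or some libraries, and exon 10 of Irf1 is near 0 in 1 D0 siKctd10 library.

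Many of the genes tested were higher in D2 than in D0 cells, in both arms, though their number depended on the scaling in siControl cells. In siKctd10 cells 20 of 31 were called higher at D2 than at D0 and 0 lower, where 23.1% of all genes were called higher and 13.3% lower, and the median log2 fold change was 0.86 against 0.12 for all genes. In siControl cells 18 of 31 were called higher and 0 lower, where 21.4% of all genes were called higher and 14.0% lower, with a median of 0.70 against 0.09. At an unadjusted p under 0.05 the counts, in either direction, were 20 in siKctd10 and 21 in siControl cells, against 44.6% and 43.9% of all genes. Under quantile scaling 18 were called higher and 1 lower in siKctd10 cells, and 12 higher and 0 lower in siControl cells. Voom on estimated read pairs called 19 higher and 1 lower in siKctd10 cells, the lower one being Ifit2, and 16 higher and 0 lower in siControl cells. The 2 arms share no library. D2 and D0 also differ in serum, density and the medium itself, which cannot be told apart here from differentiation. The myogenic markers summed to 1228 ± 153 TPM in D2 siKctd10 and 465 ± 67.8 TPM in D0 siKctd10 cells, and to 1617 ± 28.9 TPM in D2 siControl and 459 ± 5.12 TPM in D0 siControl cells. The 4 fibroblast markers (Pdgfra, Thy1, Col1a1 and Dpt) summed to 526 ± 51.3 TPM in D2 siKctd10 and 177 ± 19.8 TPM in D0 siKctd10 cells. They summed to 483 ± 68.7 TPM in D2 siControl and 178 ± 10.8 TPM in D0 siControl cells. Nearly all of each sum was Col1a1, at 471.96 to 559.41 TPM in D2 siKctd10 libraries. Pdgfra also lay higher at D2 in both arms, and Thy1 did not exceed 0.073 TPM in any library. Dpt read 0.981 to 1.253 TPM in D2 siKctd10 and 6.403 to 8.432 TPM in D2 siControl libraries. At D0, Dpt read 0.667 to 0.885 TPM in siKctd10 and 0.43 to 0.746 TPM in siControl libraries. The part of either marker group in the rises was not tested.

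By role, the calls in siKctd10 cells were 4 of 5 class I genes, 3 of 5 GTPase genes, 9 of 15 type I targets, 3 of 4 transcription factors and 1 of 2 sensors. In siControl cells they were 3 of 5 class I genes, 3 of 5 GTPase genes, 9 of 15 type I targets, 2 of 4 transcription factors and 1 of 2 sensors. Of the genes called, Ifih1, Irf7 and Igtp reached 1 TPM in 3, 4 and 6 libraries, all of them D2 and for Ifih1 all D2 siControl. The filter thus favoured a rise in these genes, so their calls, also within the counts for all 31, are not independent of it. Gbp2 averaged 33.9 ± 5.69 TPM in D2 siKctd10 and 9.96 ± 0.413 TPM in D0 siKctd10 cells (log2 fold change 1.66, SE 0.14, limma adjusted p = 1e-05). It averaged 18.5 ± 1.15 TPM in D2 siControl and 4.28 ± 0.529 TPM in D0 siControl cells (1.89, SE 0.14, adjusted p = 3.7e-06), the largest log2 value of the 31 in that arm. B2m averaged 1131 ± 161 TPM in D2 siKctd10 and 615 ± 82.4 TPM in D0 siKctd10 cells (0.88, SE 0.13), and 1694 ± 177 TPM in D2 siControl and 772 ± 33.96 TPM in D0 siControl cells (1.13, SE 0.13). H2-D1 rose by 0.96 in siKctd10 and 0.89 in siControl cells. H2-K1 rose by 0.94 in siKctd10 and 0.90 in siControl cells, though over its 2 exons covered in all libraries the siControl value was -1.01 (SE 1.43, adjusted p = 0.64).

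Igtp, low at D0 and past the filter only through D2 libraries, averaged 3.34 ± 0.262 TPM in D2 siControl and 0.669 ± 0.152 TPM in D0 siControl cells (log2 fold change 1.38, SE 0.13, limma adjusted p = 2.1e-05). Xaf1 rose by 1.54 in siKctd10 and 1.53 in siControl cells. Ifi27, a mitochondrial interferon target, was at 51.6 ± 3.11 TPM in D2 siControl and 25.4 ± 1.23 TPM in D0 siControl cells (0.99, SE 0.16, adjusted p = 0.00096). Smaller rises in siControl cells were those of Stat2 (0.88), Rtp4 (0.70), Ifitm3 (0.47), Parp9 (0.46) and Irgm1 (0.43). Those of Parp9, Dtx3l, Parp14 and Oasl2 in siControl cells were close to the threshold, and each ended under 5 or more of its alternatives. In siKctd10 cells Ifi27 rose by 1.36, Irf9 by 1.19, Dtx3l by 0.89 and Stat2 by 0.86. Irf1 rose by 1.25 there (limma adjusted p = 0.037), with D0 siKctd10 library 1 at 10.8 TPM. That call of Irf1 ended under 6 of 16 alternatives.

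Ifit1 and Tap2 passed in 1 arm each. Ifit1 had a log2 fold change of 0.22 in siKctd10 cells (limma adjusted p = 0.3) and of 0.91 in siControl cells (SE 0.15, adjusted p = 0.00088). Tap2 had 0.93 in siKctd10 cells (SE 0.20, adjusted p = 0.0056) and 0.36 in siControl cells (adjusted p = 0.21). Ddx58 rose in siKctd10 cells (1.42, SE 0.27, adjusted p = 0.0024), with 0.09 in siControl cells (adjusted p = 0.84). Isg15 rose in siKctd10 cells (1.69, limma adjusted p = 0.0046), where D0 siKctd10 library 1 was listed at 0, with 0.61 in siControl cells (adjusted p = 0.22). Ifit2 was the 1 gene of the 31 with a negative value in siKctd10 cells (-0.25, adjusted p = 0.14).

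**Figure D5:**
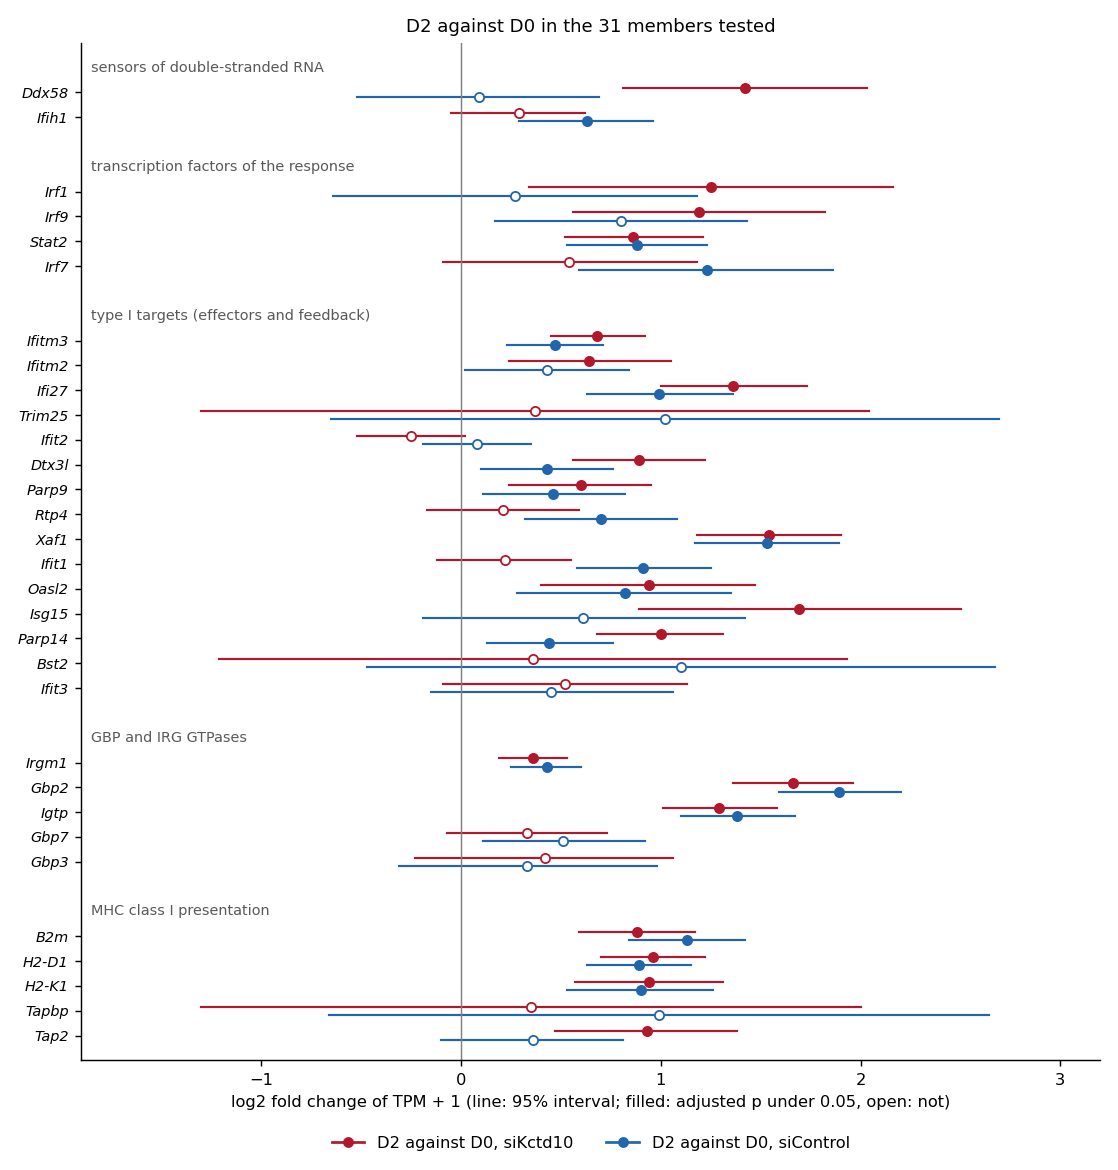
Log2 fold change of TPM + 1 with its 95% interval for D2 against D0 in the 31 genes tested, in siKctd10 and in siControl cells, by role; filled points passed an adjusted p of 0.05. All filled points lie to the right of 0, and Gbp2, Xaf1 and Igtp stand far to the right in both arms.

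A difference between the 2 arms in what happened from D0 to D2 was tested directly as the interaction of siRNA and day. By limma 0 of the 31 genes passed, where 0.742% of all genes were called, and voom on estimated read pairs also called 0. At an unadjusted p under 0.05 there were 3, a share near the 10.0% of all genes, namely Ddx58 (1.33, SE 0.38, limma adjusted p = 0.2), Ifit1 and Parp14. For Gbp2 the interaction was -0.23 (95% interval -0.66 to 0.20) and for Irgm1 -0.07 (-0.31 to 0.17). The larger log2 fold changes of 1 arm given above are therefore not shown to differ from those of the other.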

How the data were processed

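Poly(A) RNA of 12 libraries was analysed. Per the file headers, the authors ran StringTie 1.3.3b over a fixed set of 63759 transcripts. The submitters' processing notes instead give StringTie 1.1.3, with HISAT, SAMtools, DESeq2 and the build mm10, and the conflict could not be resolved. The other numbers in the deposited files are coverage, FPKM and TPM per transcript, per the file headers. No deposited counts were used, so no count test was run.

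Transcripts were matched to GENCODE M21 genes by identical introns (42608) or by 50% or more of exon bases (13473), and 7678 stayed unmatched (3.82 to 4.63% of TPM). Gene TPM is the sum over transcripts. Of these 42 genes, 28 have several or overlapping transcripts, whose split is an estimate. Values were fitted as log2(TPM + 1), which understates changes of low genes, with limma 3.58.1 in R 4.3.3, using a trended, robust variance, 1 mean per group and 8 residual degrees of freedom. Tests were two-sided with Benjamini-Hochberg adjustment, and "called" means an adjusted p under 0.05. The code was tested on simulated data. Read pairs of 202 bases gave the depth. An exact permutation test of 3 against 3 libraries cannot go below p = 0.1, so none is given.

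The 42 genes, lists and tests were chosen with earlier results of these data known. Genes called between siRNAs and the most abundant of each role were named. For D2 against D0 the 12 largest called changes of each arm with at least 5 TPM were named, some by log2 fold change alone. Other pathway genes were named where called with at least 5 TPM. Promoter windows are RefSeq's. Alternatives were another pseudocount, other filters, median-ratio and quantile scaling, intron matches only, voom, a replicate block, only the groups compared and each library left out. Restriction to exons covered in all 12 libraries was added after seeing the data.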

Additional observations from a re-analysis of the deposited data

How the results depend on the processing

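Of 732 repeats of the 47 named fold changes, 636 kept direction and side of the threshold, 95 lost the call and 1 reversed: H2-K1 in siControl D2 against D0, at -1.01 over exons covered in all 12 libraries; the cause was not tested. With only the groups compared, which leaves fewer samples to estimate the spread, 2 of the 42 genes and 260 genes in all were called at D2 and 1 and 72 at D0. A pseudocount of 0.1 gave 3 of the 42 at D2 and 62 genes for the interaction. A mean TPM of at least 5, which tests fewer genes, left 10 of the 42 for D2 against D0 in siControl cells.

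With 1 library left out, calls among the 42 were 2 to 4 and in all genes 315 to 417 at D2, 2 to 3 and 118 to 223 at D0, and 52 to 82 genes for the interaction. Gbp2 and Irgm1 were called in each of these at D2 and at D0, and no gene of the 42 was called for the interaction. Whether the replicate numbers pair the libraries is not settled. Correlations of same-numbered deviations were -0.025 to 0.206. Between D0 and D2 siKctd10 libraries they were 0.102, 0.053 and 0.206, against -0.148 to 0.062 for different numbers. Between D0 siControl and D2 siKctd10 libraries they were -0.025 to 0.029, against -0.03 to 0.042 for different numbers. A replicate block gave 3 of the 42 at D2 (B2m, Gbp2 and Irgm1), 3 at D0 (Gbp2, Irgm1 and Tap2) and 42 genes for the interaction.

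Scaling moved the balance of calls over all genes. At D2, 59.6% of called genes were higher, against 39.6% under median-ratio and 46.4% under quantile scaling, and at D0 60.6%, against 47.6% and 47.5%. Of the 6 genes called between siRNAs, H2-D1 lost its D2 call under quantile scaling (adjusted p = 0.051 by limma) and none changed direction. The files give no counts, so precision of genes near 1 TPM is unknown.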
